A study of Homo sapiens with 6 samples.

Results

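The genes examined here are 10 genes of antigen presentation by major histocompatibility complex (MHC) class II, measured in RNA from OCI-AML2, an established human acute myeloid leukaemia (AML) cell line. They were chosen by symbol, without use of measured values, out of the 60675 Ensembl gene identifiers of the deposited tables, and each symbol had 1 identifier. Earlier results of these data were known when they were chosen. They are the chain genes HLA-DRA, HLA-DRB1, HLA-DPA1, HLA-DPB1, HLA-DQA1 and HLA-DQB1, the peptide-exchange genes HLA-DMA and HLA-DMB, the invariant chain gene CD74 and the regulator gene CIITA. The cells had been transduced with a short hairpin RNA against SUPV3L1 (SUV3, a mitochondrial RNA helicase) in 3 libraries and against PNPT1 (a mitochondrial exoribonuclease) in 3 libraries, and the study's design text calls the libraries of each group biological replicates. RNA was pulled down with J2, an antibody that binds double-stranded RNA, and sequenced after a directional library preparation. Cells without a hairpin and RNA from before the pull-down were not analysed here, so the comparison is SUPV3L1 knockdown against PNPT1 knockdown. A difference in expression cannot be told apart from one in precipitation. Nor can fewer cells that express a gene be told apart from less of its RNA in each cell. The sources used here do not give how many hairpins or clones each group holds or how the replicates were grown, so p-values measure the spread between these libraries. Replicates are numbered in accession order.

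Class II molecules carry peptides from the endosomal pathway to the cell surface, where CD4+ T cells read them. An alpha and a beta chain assemble on the invariant chain CD74, which blocks the peptide groove and routes the complex to endosomes. Cathepsins and other proteases then cut CD74 down, and HLA-DM exchanges its last fragment for peptide. CIITA is a co-activator that binds no DNA itself: it joins the RFX complex, NF-Y and CREB on a shared set of promoter elements of the class II genes and CD74, and interferon gamma induces it in many cell types. Monocytes and many AML blasts carry class II molecules, and loss of these molecules on blasts has been linked to escape from T cells.

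The promoters of 4 members are shown because they set the invariant chain gene, the member with most of the counts, beside HLA-DRB1, with few counts, and HLA-DPB1 and HLA-DQA1, with none. Each runs from 250 bases before to 50 bases after the annotated gene start, 5′ to 3′ on the gene's strand, from RefSeq on GRCh38.p14. Capitals mark CCAAT, the core of the element that NF-Y binds, and TGATGA, letters shared by several class II promoters that were chosen after the promoters were read. Both were searched on both strands, and a match on the opposite strand appears as ATTGG or TCATCA.
CD74, chr5:150412861-150413160, minus strand: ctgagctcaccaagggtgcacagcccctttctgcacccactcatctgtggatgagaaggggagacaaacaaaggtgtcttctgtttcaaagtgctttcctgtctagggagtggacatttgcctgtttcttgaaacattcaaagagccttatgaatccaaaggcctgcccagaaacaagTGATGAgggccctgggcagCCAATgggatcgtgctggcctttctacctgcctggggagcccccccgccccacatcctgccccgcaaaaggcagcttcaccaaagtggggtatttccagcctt
HLA-DRB1, chr6:32589799-32590098, minus strand: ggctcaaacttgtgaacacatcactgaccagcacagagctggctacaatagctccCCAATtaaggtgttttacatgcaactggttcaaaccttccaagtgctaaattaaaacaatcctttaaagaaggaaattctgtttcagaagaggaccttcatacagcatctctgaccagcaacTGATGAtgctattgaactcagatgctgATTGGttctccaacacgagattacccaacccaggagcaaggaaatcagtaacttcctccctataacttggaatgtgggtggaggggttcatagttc
HLA-DPB1, chr6:33075740-33076039, plus strand: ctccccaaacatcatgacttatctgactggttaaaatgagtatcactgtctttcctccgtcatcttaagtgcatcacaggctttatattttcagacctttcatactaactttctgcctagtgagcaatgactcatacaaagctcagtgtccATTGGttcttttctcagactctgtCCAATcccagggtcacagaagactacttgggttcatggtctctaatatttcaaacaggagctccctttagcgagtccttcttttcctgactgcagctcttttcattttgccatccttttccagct
HLA-DQA1, chr6:32637156-32637455, plus strand: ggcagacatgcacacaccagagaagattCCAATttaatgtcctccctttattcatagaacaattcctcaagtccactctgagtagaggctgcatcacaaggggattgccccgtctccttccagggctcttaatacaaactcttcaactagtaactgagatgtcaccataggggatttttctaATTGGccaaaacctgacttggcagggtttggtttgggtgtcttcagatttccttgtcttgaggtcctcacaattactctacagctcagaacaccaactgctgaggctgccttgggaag

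The RefSeq table held 9 promoter entries for 8 of the 10 members, with 2 for HLA-DPA1, and HLA-DRA and CIITA had no match in it. CCAAT was found in 7 of the 9 entries, against 34.6% of 35116 promoters of the same length, and TGATGA in 5 of 9, against 10.9%. Both were found in 4 entries, those of CD74, HLA-DRB1, HLA-DMA and HLA-DMB, against 4.11% of all promoters. TGATGA was chosen from these same promoters, so neither its share nor that of both can be read as an enrichment. From the end of TGATGA to the next CCAAT there were 13 bases in CD74, 21 in HLA-DRB1, 22 in HLA-DMA and 54 in HLA-DMB. The fifth TGATGA match lay after the start in an entry of HLA-DPA1, which had no CCAAT. CD74 and HLA-DRB1 shared both runs of letters, and HLA-DPB1 and HLA-DQA1 held CCAAT alone. HLA-DQB1, with 17 counts in all, also held CCAAT alone, and HLA-DPA1, with 14, had no CCAAT in either entry. Members with counts thus did not all hold both. A match in letters is not a measured binding site.

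Assigned counts were 9378264 to 11361371 per library in SUPV3L1 knockdown and 5852090 to 10464630 in PNPT1 knockdown. PNPT1 knockdown replicate 3 stood apart: it had the fewest assigned counts (5852090), the fewest genes with a count (16620, against 20765 to 22393 in the others) and the highest share of alignments that were not unique (80.1%). SUPV3L1 mRNA was at 9.42 to 12.3 CPM in SUPV3L1 knockdown and 11.6 to 25.9 CPM in PNPT1 knockdown, and PNPT1 mRNA at 21.4 to 36.3 CPM in SUPV3L1 knockdown and 7.66 to 18.95 CPM in PNPT1 knockdown, where CPM is the count scaled to a common library size by TMM (the trimmed mean of M-values) and unscaled CPM is the same without TMM. Their log2 fold changes, SUPV3L1 over PNPT1 knockdown, were -0.70 ± 0.39 and 0.97 ± 0.41 (SE, n = 3 per group), so both pointed as labelled, but neither was called (edgeR, Benjamini-Hochberg adjusted p = 0.898 for both).

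CD74 made up nearly all class II reads in these libraries. Of the 10 members 8 had at least 1 count, where 46.2% of all identifiers did. CD74 had 881, 534 and 702 counts in SUPV3L1 knockdown replicates 1, 2 and 3 and 835, 677 and 588 counts in PNPT1 knockdown replicates 1, 2 and 3. These were 89.7%, 98.0% and 91.6% of the counts of the 10 members in the SUPV3L1 knockdown libraries and 93.6%, 96.7% and 96.2% in the PNPT1 knockdown libraries. Exact 95% binomial intervals of these shares, which cover counting error only, ran from 87.6% to 99.0% over all 6 libraries. The mean share was 93.1% ± 4.33 in SUPV3L1 knockdown, against 95.5% ± 1.67 in PNPT1 knockdown (SD, n = 3 each). The difference of -2.41 percentage points was smaller than the SD of the SUPV3L1 knockdown libraries and larger than that of the PNPT1 knockdown libraries (two-sided exact permutation p = 0.4, where 3 libraries against 3 cannot give a p below 0.1).

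The 6 alpha and beta chain genes of the HLA-DR, HLA-DP and HLA-DQ molecules had few counts or none. HLA-DRA, the alpha chain of HLA-DR, had 0, 1 and 11 counts in SUPV3L1 knockdown and 2, 5 and 12 in PNPT1 knockdown. HLA-DRB1, its main beta chain, had 8, 0 and 5 counts in SUPV3L1 knockdown and 2, 2 and 0 in PNPT1 knockdown. HLA-DPA1, the HLA-DP alpha chain, had 3, 0 and 4 counts in SUPV3L1 knockdown and 5, 0 and 2 in PNPT1 knockdown. The groups overlapped for each of these 3 genes, and each had at least 1 library without a count. HLA-DQB1, the HLA-DQ beta chain, had 10, 2 and 3 counts in SUPV3L1 knockdown and 0, 0 and 2 in PNPT1 knockdown. In CPM it was at 0.822, 0.189 and 0.325 in SUPV3L1 knockdown and 0, 0 and 0.512 in PNPT1 knockdown. The groups thus touched at 2 counts and overlapped in CPM, and the highest value of HLA-DQB1 came from SUPV3L1 knockdown replicate 1. HLA-DPB1 and HLA-DQA1, the HLA-DP beta and HLA-DQ alpha chains, had 0 counts in all 6 libraries. With 30748432 assigned counts in SUPV3L1 knockdown and 24669290 in PNPT1 knockdown, a count of 0 allows up to 0.0976 unscaled CPM in SUPV3L1 knockdown and 0.122 in PNPT1 knockdown, over the whole group. No complete HLA-DP or HLA-DQ pair of chains was therefore detected at this depth, while both HLA-DR chains had at least 1 count in 3 libraries (SUPV3L1 knockdown replicate 3 and PNPT1 knockdown replicates 1 and 2).

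HLA-DMA and HLA-DMB encode the 2 chains of HLA-DM, the exchange factor that loads peptide. HLA-DMA had 16, 0 and 20 counts in SUPV3L1 knockdown and 10, 6 and 2 in PNPT1 knockdown. HLA-DMB had 47, 3 and 6 counts in SUPV3L1 knockdown and 7, 2 and 1 in PNPT1 knockdown. SUPV3L1 knockdown replicate 1 held 71.2% of the 66 counts of HLA-DMB. The other 5 libraries lay at 7 counts or fewer, and the groups overlapped. In that library HLA-DMB was at 4.14 unscaled CPM (exact 95% interval 3.04 to 5.5), and no upper bound in the other 5 libraries passed 1.73. The difference between this library and the rest is larger than counting error, but the other replicates of its group did not show it.

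CIITA, the regulator of the whole set, was also sparse. It had 17, 5 and 15 counts in SUPV3L1 knockdown and 31, 8 and 4 in PNPT1 knockdown. These were 1.40, 0.472 and 1.62 CPM in SUPV3L1 knockdown and 3.09, 0.699 and 1.02 CPM in PNPT1 knockdown. The highest library was PNPT1 knockdown replicate 1, and the groups overlapped.

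**Figure D1:**
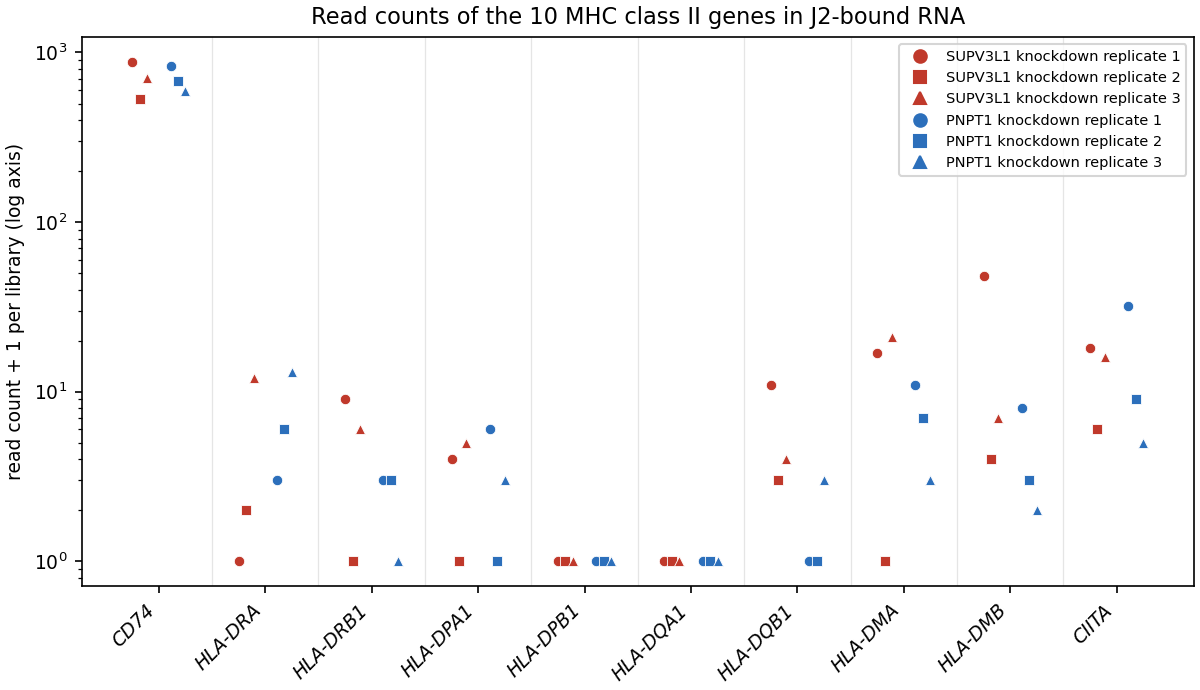
Read count plus 1 (log axis) of each of the 10 class II genes in each library, with SUPV3L1 knockdown libraries in red to the left of PNPT1 knockdown libraries in blue; a point at the bottom is a count of 0. CD74 had 534 to 881 counts, while no other member passed 47 and HLA-DPB1 and HLA-DQA1 had none.

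The deposited FPKM table, which scales fragments to gene length and depth, allows genes to be set beside each other. CD74 was at 19.0, 13.1 and 18.75 FPKM in SUPV3L1 knockdown and 24.3, 16.1 and 24.5 FPKM in PNPT1 knockdown. Its mean FPKM over the 6 libraries, 19.3, lay above that of 94.6% of the 13275 genes tested, whose median was 2.57 FPKM. No other member had a mean FPKM above 0.311. HLA-DRA had the highest mean FPKM after CD74, from 2 libraries listed above 0: SUPV3L1 knockdown replicate 3 at 0.683 FPKM and PNPT1 knockdown replicate 3 at 1.18 FPKM. HLA-DMB, HLA-DMA and HLA-DRB1 followed with means of 0.231, 0.217 and 0.209 FPKM. CIITA, HLA-DPA1 and HLA-DQB1 averaged 0.0792, 0.0372 and 0.0362 FPKM. Among these 7 genes the ranges over libraries overlapped between neighbours in this order, so the order is not resolved by these data. HLA-DPB1 and HLA-DQA1 were listed at 0 FPKM in every library, as they were in the counts. HLA-DRA was listed at 0 FPKM also in PNPT1 knockdown replicate 2, where it had 5 counts, so the 2 tables do not treat low counts alike.

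HLA class I molecules present peptides from inside the cell to CD8+ T cells. Their genes were named here after the data were seen. HLA-B was at 153, 62.7 and 171.5 FPKM in SUPV3L1 knockdown and 154, 99.8 and 259 FPKM in PNPT1 knockdown. HLA-C, HLA-E and the class I light chain gene B2M ranged from 20.5 to 204 FPKM over the 6 libraries. These 4 genes were thus above every class II gene, CD74 included, in FPKM in every library. Of the runs of 50 bases in the annotated transcripts of each class II member, the share also found in transcripts of another gene was 0% for HLA-DRA, HLA-DPA1 and CD74, 1.37% for HLA-DPB1, 1.51% for HLA-DQB1 and 2.07% for HLA-DQA1. It was 4.52% for HLA-DMA, 8.0% for HLA-DMB, 9.92% for HLA-DRB1 (8.64% with HLA-DRB5) and 11.5% for CIITA (mostly with AC133065.3). Most of each class II reference transcript is thus unique at this length. The alleles of the line, and reads lost to them, were not tested.

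**Figure D2:**
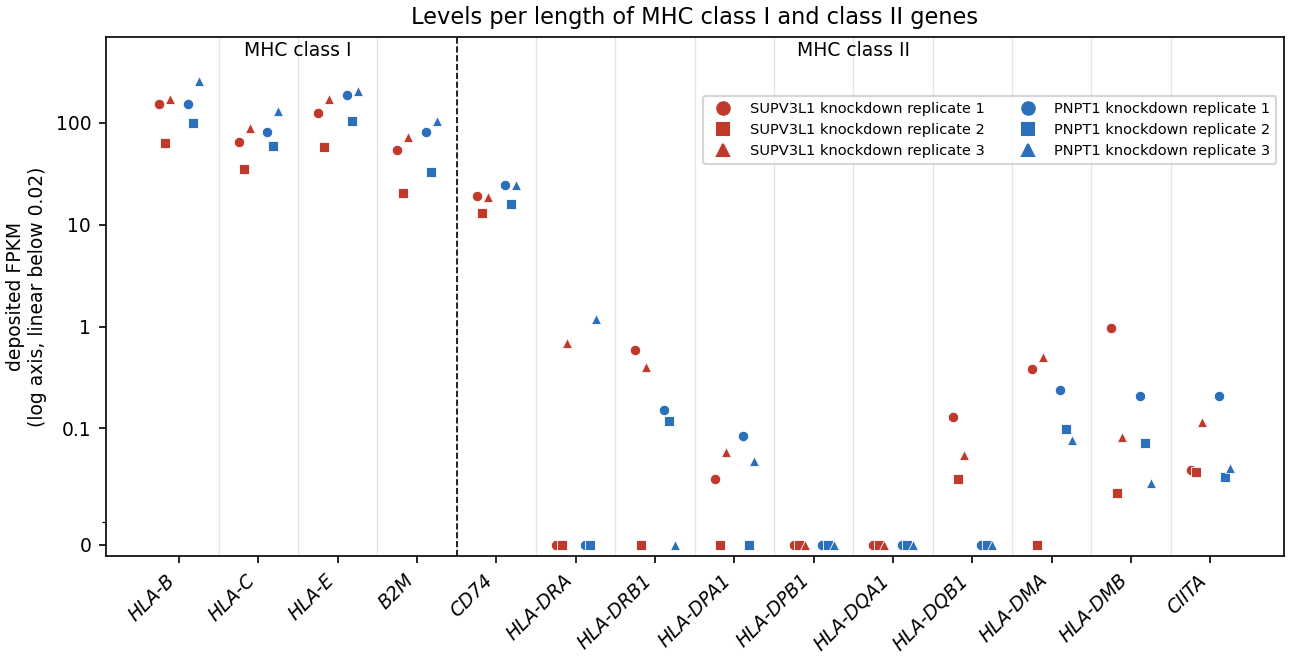
Deposited FPKM (log axis, linear below 0.02) of the MHC class I genes HLA-B, HLA-C, HLA-E and B2M, left of the dashed line, and of the 10 class II genes, right of it, in each library; SUPV3L1 knockdown libraries are red and to the left of PNPT1 knockdown libraries in blue. These class I genes lay between 20.5 and 259 FPKM and CD74 between 13.1 and 24.5 FPKM, and no other class II gene passed 1.18 FPKM.

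All 10 members have positions in GENCODE 29 on GRCh38. CD74 (ENSG00000019582) lies on chromosome 5 at 150401637 to 150412929 on the minus strand, and no other annotated gene overlaps it. CIITA (ENSG00000179583) lies on chromosome 16 at 10866222 to 10943021 on the plus strand. It overlaps DEXI and AC133065.1 on the minus strand, and AC133065.3, with 15 counts in all, on its own strand. The 8 HLA genes lie on chromosome 6, from HLA-DRA at 32439842 to 32445046 to HLA-DPB1 at 33075926 to 33087201. HLA-DPA1, at 33064569 to 33080775 on the minus strand, overlaps HLA-DPB1 on the plus strand, and HLA-DQB1 overlaps its antisense gene HLA-DQB1-AS1, which had 0 counts in all 6 libraries. HLA-DMA overlaps BRD2, which had 7142 counts in all, and both HLA-DM genes overlap AL645941.2 on the same strand, which had none. Genes on the same strand cannot be told apart by a strand setting where they overlap. Reads of CIITA and of both HLA-DM genes may therefore have been set aside as ambiguous there. The sources used here do not give the counting tool's strand setting. Without it, reads from HLA-DPA1 and HLA-DPB1, from HLA-DMA and BRD2 and from CIITA and DEXI (289 counts in all) cannot be told apart where they overlap, and reads may have been set aside as ambiguous.

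The comparison of the knockdowns asked whether class II presentation genes differed between loss of the helicase and loss of the exoribonuclease. No member passed the test. Of 13275 genes in edgeR's quasi-likelihood fit, 0 were called at a Benjamini-Hochberg adjusted p under 0.05 (0.00%), and at an unadjusted p under 0.05 there were 543 (4.09%). DESeq2 called 18. Only 3 members had enough counts to enter the fit: CD74, CIITA and HLA-DMA. None of the 3 was called by either tool or reached an unadjusted p under 0.05, and the groups overlapped for each, where 8.56% of tested genes had groups that did not overlap. Their median log2 fold change, SUPV3L1 over PNPT1 knockdown, was -0.49, against 0.0094 over all tested genes.

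CD74 was at 72.4, 50.4 and 76.0 CPM in SUPV3L1 knockdown and 83.1, 59.1 and 150.5 CPM in PNPT1 knockdown after TMM scaling. The means were 66.3 ± 13.9 CPM in SUPV3L1 knockdown, against 97.6 ± 47.4 CPM in PNPT1 knockdown (SD, n = 3 each). The groups overlapped, and PNPT1 knockdown replicate 3 stood above the other 5 libraries. The log2 fold change was -0.55 ± 0.38 (SE; edgeR, adjusted p = 0.898), and -0.11 without PNPT1 knockdown replicate 3. That library had a TMM factor of 0.669, which raises its CPM, against 1.21 and 1.10 in the other PNPT1 knockdown libraries. Without scaling, CD74 was at 77.5, 53.4 and 74.9 CPM in SUPV3L1 knockdown and 99.97, 64.7 and 100.5 CPM in PNPT1 knockdown. On this scale PNPT1 knockdown replicates 1 and 3 overlapped within counting error (exact 95% intervals 93.3 to 107 and 92.5 to 109), and PNPT1 knockdown replicate 2 lay inside the range of the SUPV3L1 knockdown libraries.

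**Figure D3:**
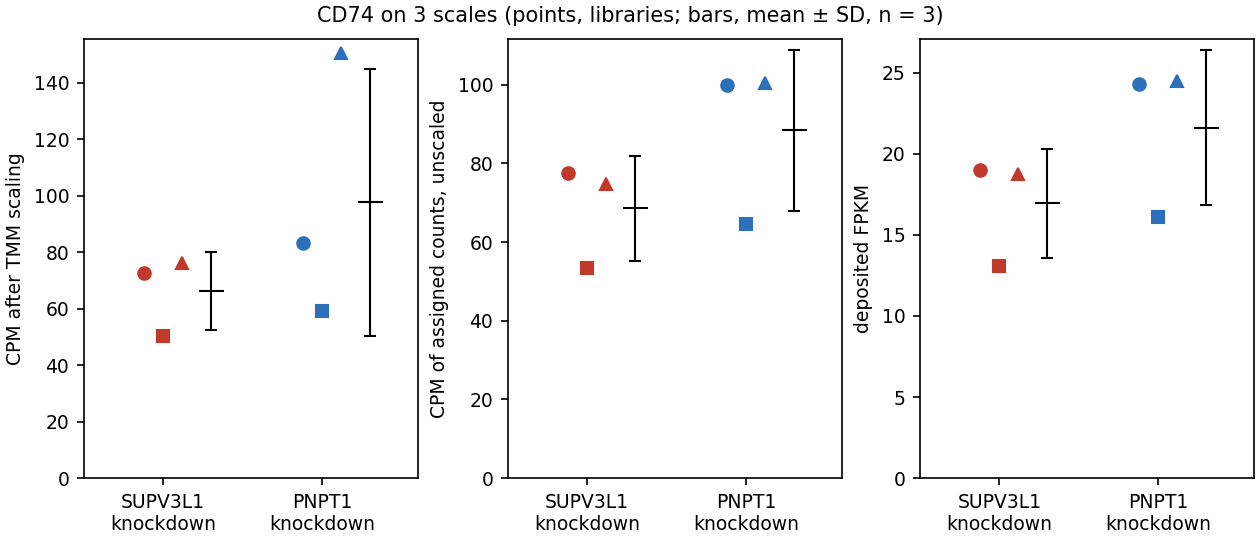
CD74 in each library (circle, replicate 1; square, replicate 2; triangle, replicate 3) as TMM-scaled CPM, as unscaled CPM and as deposited FPKM, with SUPV3L1 knockdown in red left of PNPT1 knockdown in blue and the mean ± SD (n = 3) beside the points. PNPT1 knockdown replicate 3 stands apart at 150.5 CPM only after TMM scaling, and the groups overlap on all 3 scales.

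For CIITA the log2 fold change was -0.49 ± 0.76 (SE; edgeR, adjusted p = 0.928), and it turned to 0.47 without PNPT1 knockdown replicate 1, the library with the most CIITA counts. HLA-DMA had a log2 fold change of 0.72 ± 1.04 (SE; edgeR, adjusted p = 0.925), and of -0.0502 without SUPV3L1 knockdown replicate 3. The direction of each thus turned when 1 library was left out. The summed level of the 10 members was 71.7 ± 17.6 CPM in SUPV3L1 knockdown, against 102 ± 49.0 CPM in PNPT1 knockdown (SD, n = 3 each; two-sided exact permutation p = 0.4), and CD74 made up most of it. The difference of -30.4 CPM was -3.26 CPM without PNPT1 knockdown replicate 3, and it turned to 3.17 CPM with library totals that leave out mitochondrial genes (118 CPM in SUPV3L1 knockdown, against 115 CPM in PNPT1 knockdown). The 8 HLA genes alone summed to 6.91, 0.566 and 5.31 CPM in SUPV3L1 knockdown and 2.59, 1.31 and 4.86 CPM in PNPT1 knockdown (two-sided exact permutation p = 0.6). SUPV3L1 knockdown replicate 2 was the lowest of all 6 libraries and replicate 1 of the same group the highest. Without SUPV3L1 knockdown replicate 1 the means were 2.94 CPM in SUPV3L1 knockdown, against 2.92 CPM in PNPT1 knockdown. Adjusted by the Benjamini-Hochberg method over the 3 measures tested in this way (both sums and the CD74 share), each permutation p was 0.6.

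With no expression filter 8 members could be fitted, and none was called by edgeR, where 187 of 28015 genes (0.667%) were. HLA-DMB then had a log2 fold change of 2.03 ± 0.92 (SE; edgeR, adjusted p = 0.723), and of 0.24 without SUPV3L1 knockdown replicate 1. HLA-DQB1 and HLA-DRB1 were at 2.09 ± 1.37 and 1.36 ± 1.26, and HLA-DRA and HLA-DPA1 at -1.34 ± 0.99 and -0.43 ± 1.26 (log2, SE). Without SUPV3L1 knockdown replicate 1 these log2 fold changes were 1.25 for HLA-DQB1, 0.77 for HLA-DRB1, -0.74 for HLA-DRA and -0.52 for HLA-DPA1. Most of these fold changes rest on fewer than 20 counts over 6 libraries.

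SUPV3L1 knockdown replicate 1, the library with most HLA-DMB, also stood out for a few myeloid and antigen-presenting genes, picked here after their values were seen from lists of markers and pathway genes. CD86, a costimulatory ligand for T cells, was at 7.48, 0.283 and 0.975 CPM in SUPV3L1 knockdown and 0.597, 1.048 and 0.512 CPM in PNPT1 knockdown. CD14, a co-receptor for bacterial lipopolysaccharide on monocytes, was at 67.6, 0.755 and 1.73 CPM in SUPV3L1 knockdown and 0.398, 0.437 and 0.768 CPM in PNPT1 knockdown. That 1 library held 74.0% of all counts of CD86 and 95.8% of those of CD14. ITGAM, the integrin chain CD11b, was at 16.3, 1.32 and 3.03 CPM in SUPV3L1 knockdown and 2.69, 0.786 and 0.512 CPM in PNPT1 knockdown. CTSH, an endosomal cathepsin, was at 23.6, 4.81 and 7.04 CPM in SUPV3L1 knockdown and 13.5, 6.72 and 9.47 CPM in PNPT1 knockdown. IFNGR2, a chain of the interferon gamma receptor, was at 35.4, 15.8 and 15.6 CPM in SUPV3L1 knockdown and 14.5, 15.8 and 20.5 CPM in PNPT1 knockdown. In each of these genes replicate 1 was the highest of the 6 libraries, and the other SUPV3L1 knockdown libraries lay within or near the PNPT1 knockdown range. The myeloid markers LYZ (1493 CPM) and CSF1R (16.3 CPM) were also highest in this library. For both, every SUPV3L1 knockdown library lay above the PNPT1 knockdown range. Other genes of the same marker list did not follow: this library was the lowest of the 6 for CEBPA (48.1 CPM) and MPO (0.822 CPM), and not the highest for SPI1, CD33 or PTPRC. CD74 did not follow it either: SUPV3L1 knockdown replicate 1 was at 72.4 CPM, below replicate 3 of the same group at 76.0 CPM. What these genes share with HLA-DMB in that library was not tested.

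**Figure D4:**
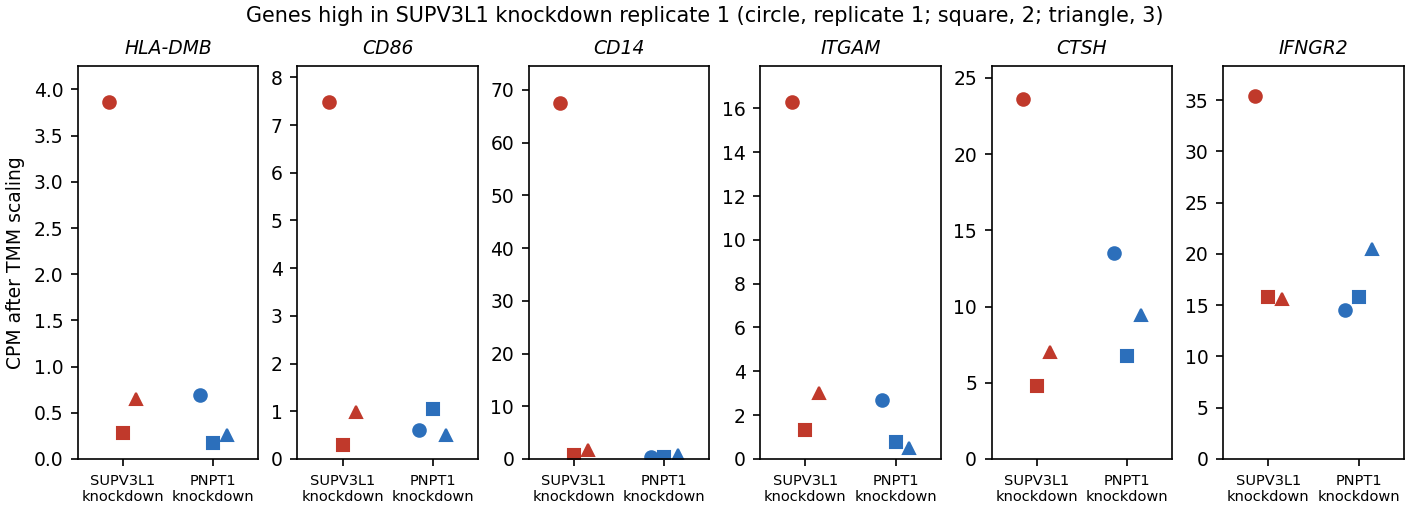
TMM-scaled CPM of HLA-DMB and of 5 other genes in each library (circle, replicate 1; square, replicate 2; triangle, replicate 3), with SUPV3L1 knockdown in red left of PNPT1 knockdown in blue. SUPV3L1 knockdown replicate 1 is the highest point in all 6 panels, from 3.86 CPM for HLA-DMB to 67.6 CPM for CD14.

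Of 9 myeloid markers, which the labelled cell type should carry, all had counts, among them the master regulator gene SPI1 (75.5 to 82.4 CPM in SUPV3L1 knockdown and 52.0 to 66.9 CPM in PNPT1 knockdown). MPO, the myeloperoxidase gene, was low, at 0.822 to 7.07 CPM in SUPV3L1 knockdown and 1.135 to 3.33 CPM in PNPT1 knockdown. The summed myeloid markers ranged from 882 to 2302 CPM in SUPV3L1 knockdown and from 631 to 823 CPM in PNPT1 knockdown, without overlap. That gap came from LYZ, the lysozyme gene, at 1493, 344 and 1331 CPM in SUPV3L1 knockdown and 36.6, 180 and 144 CPM in PNPT1 knockdown. Without LYZ, a sum added after seeing the data, the markers ranged from 528 to 809 CPM in SUPV3L1 knockdown and from 451 to 786 CPM in PNPT1 knockdown, and the groups overlapped. Of the 8 markers in the fit 4 (LYZ, CSF1R, SPI1 and CD33) had groups that did not overlap, where 8.56% of all tested genes had none, and the part of these genes in the class II values was not tested. Of the markers of other cells that carry class II molecules, the 5 B cell genes summed to 2.06 to 5.31 CPM in SUPV3L1 knockdown and 1.02 to 3.93 CPM in PNPT1 knockdown, with MS4A1 at 0 in all libraries. The dendritic cell markers CD1C and FCER1A had 0 and 1 count in all, while FLT3 and IRF8, which myeloid progenitors and AML cells also express, made up most of that list (123 to 189 CPM in SUPV3L1 knockdown and 66.8 to 130 CPM in PNPT1 knockdown). The 4 T cell markers summed to at most 0.164 CPM in SUPV3L1 knockdown and to 0 CPM in PNPT1 knockdown.

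The remaining genes of the pathway were read from a list of 31, of which 20 entered the fit. None was called by edgeR after adjustment. Of the 20, 5 had a log2 fold change above 0 and 15 below, with a median of -0.0957, where 6729 of all tested genes lay above 0 and 6546 below, with a median of 0.0094. Of the 20, 2 reached an unadjusted p under 0.05, where 4.09% of all tested genes did. On TMM-scaled CPM the groups did not overlap for 1 of the 20, where this held for 8.56% of all tested genes.

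The other class II genes were also sparse, though HLA-DOB, with 43 counts in all and a mean of 0.379 FPKM, lay above each chain gene. HLA-DOB, a chain of HLA-DO, which restrains HLA-DM, had 10, 3 and 11 counts in SUPV3L1 knockdown and 6, 13 and 0 in PNPT1 knockdown. HLA-DOA, its partner, and HLA-DRB5, HLA-DQA2 and HLA-DQB2 had 0 counts in all 6 libraries. The partners of CIITA were well measured: all 7 entered the fit, 2 above 0 and 5 below, with a median of -0.0951. RFX5, the DNA-binding subunit of RFX, was at 34.7 ± 4.14 CPM in SUPV3L1 knockdown, against 37.8 ± 4.89 CPM in PNPT1 knockdown (SD, n = 3 each). NFYA, a subunit of NF-Y, was at 49.3 ± 7.17 CPM in SUPV3L1 knockdown, against 62.2 ± 42.7 CPM in PNPT1 knockdown. CREB1 averaged 36.2 ± 4.51 CPM in SUPV3L1 knockdown, against 38.6 ± 10.0 CPM in PNPT1 knockdown. RFXANK, another RFX subunit, averaged 29.5 ± 8.52 CPM in SUPV3L1 knockdown, against 30.4 ± 5.56 CPM in PNPT1 knockdown. Each of these differences was smaller than the larger of the SDs. NFYB, another NF-Y subunit, was named after its values were seen. It was at 9.54, 10.9 and 16.6 CPM in SUPV3L1 knockdown and 19.9, 15.1 and 38.1 CPM in PNPT1 knockdown, with overlapping groups after TMM scaling. Unscaled, NFYB was at 10.2, 11.5 and 16.3 CPM in SUPV3L1 knockdown and 23.9, 16.5 and 25.5 CPM in PNPT1 knockdown, without overlap. The share of all genes without overlap was not counted on that scale. The log2 fold change of NFYB was -0.97 ± 0.42 (SE; edgeR, adjusted p = 0.898), and -0.52 without PNPT1 knockdown replicate 3. Every library thus held more of each of these 5 factors than of CIITA in CPM, which ranged from 0.472 to 3.09 CPM.

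Endosomal processing genes were mostly present. CTSS, cathepsin S, which makes the last cuts in CD74, was at 33.9, 27.4 and 40.2 CPM in SUPV3L1 knockdown and 67.0, 50.5 and 48.6 CPM in PNPT1 knockdown. On TMM-scaled CPM it was the 1 pathway gene without overlap between the groups, where 8.56% of all tested genes had none. Unscaled, CTSS was at 36.3, 29.1 and 39.6 CPM in SUPV3L1 knockdown and 80.6, 55.2 and 32.5 CPM in PNPT1 knockdown. The groups overlapped on that scale and in FPKM. The log2 fold change of CTSS was -0.71 ± 0.31 (SE), which did not pass (edgeR, adjusted p = 0.898). It lay between -0.85 and -0.56 on leaving out 1 library at a time. CST3, cystatin C, an inhibitor of cathepsins, was at 48.2 ± 20.6 CPM in SUPV3L1 knockdown, against 72.0 ± 17.0 CPM in PNPT1 knockdown (SD, n = 3 each). The cathepsin gene CTSB averaged 32.5 ± 6.48 CPM in SUPV3L1 knockdown, against 43.2 ± 14.4 CPM in PNPT1 knockdown, and CTSD 33.5 ± 9.91 CPM in SUPV3L1 knockdown, against 37.8 ± 13.1 CPM in PNPT1 knockdown (SD, n = 3 each). Of the 9 genes of this list 7 entered the fit, 1 above 0 and 6 below. LGMN and IFI30, the endosomal protease legumain and thiol reductase GILT, had 6 and 19 counts in all and did not enter it. In the deposited FPKM values LGMN averaged 0.0194 and IFI30 1.87, so counts and FPKM differ on how low IFI30 was.

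Signalling genes upstream of CIITA were measured in every library. IRF1, a transcription factor that acts on the CIITA gene and was named after its values were seen, was at 16.2, 7.64 and 4.87 CPM in SUPV3L1 knockdown and 9.06, 16.4 and 27.6 CPM in PNPT1 knockdown. The groups overlapped, and the log2 fold change was -0.87 ± 0.54 (SE; edgeR, adjusted p = 0.898). The receptor chain gene IFNGR1 was at 66.8 ± 26.5 CPM in SUPV3L1 knockdown, against 67.2 ± 25.1 CPM in PNPT1 knockdown (SD, n = 3 each). The kinase gene JAK1 averaged 40.4 ± 2.88 CPM in SUPV3L1 knockdown, against 42.3 ± 8.47 CPM in PNPT1 knockdown, and JAK2 27.0 ± 5.29 CPM in SUPV3L1 knockdown, against 40.6 ± 18.02 CPM in PNPT1 knockdown. Of the 5 genes of this list 1 had a log2 fold change above 0 and 4 below, and none was called. Of the costimulatory genes, CD80 and CD40 had 4 and 1 counts in all. The ubiquitin ligase genes MARCHF8 and MARCHF1, whose products remove class II molecules from the surface, had 699 and 2 counts in all.

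**Figure D5:**
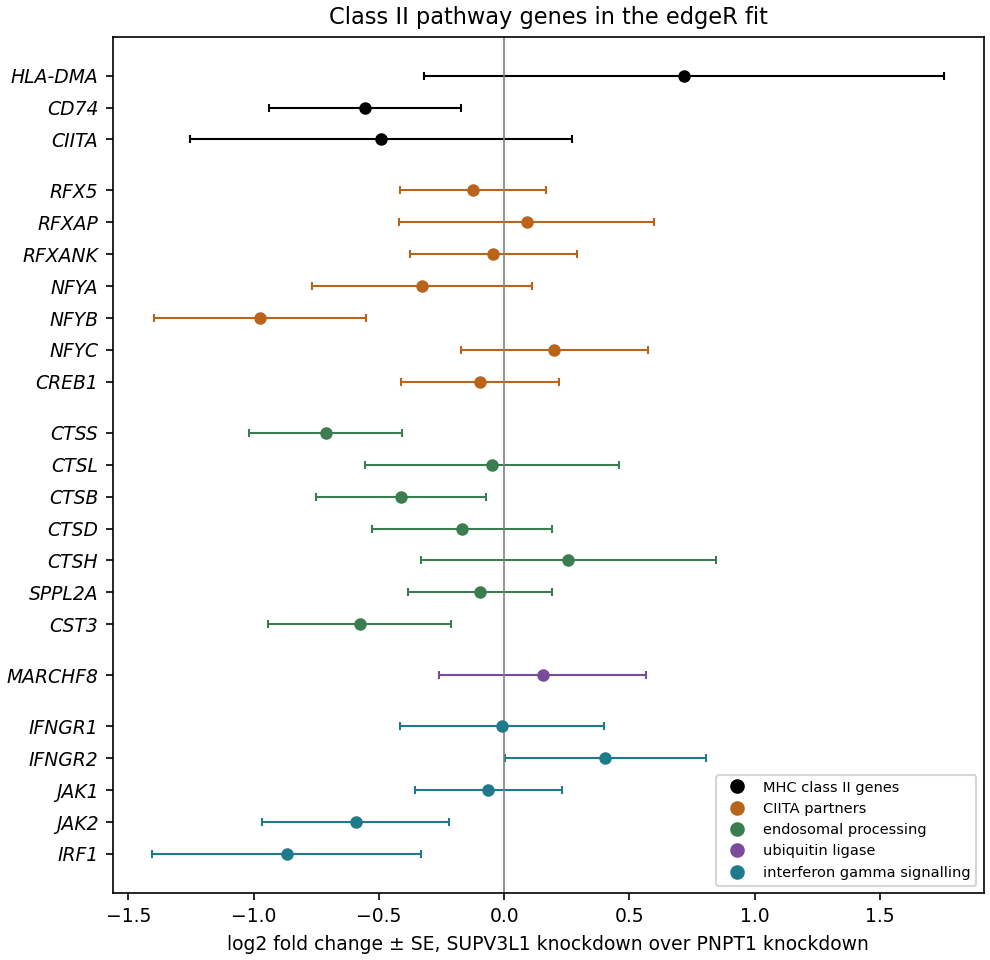
Log2 fold change, SUPV3L1 knockdown over PNPT1 knockdown, with its standard error from edgeR (n = 3 per group), for the 3 class II members and the 20 other pathway genes in the fit, grouped by role. None passed after adjustment, and CTSS at -0.71 and NFYB at -0.97 had the smallest unadjusted p-values.

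The genes whose levels were most like those of CD74 over the 6 libraries were ETFA, ZNF706, ZFR, COPS5 and MUT. Likeness was the root mean square distance between log2 CPM centred on each gene's mean, over 9738 genes (those with a mean of at least 50 counts, and the members in the fit). Distances of these 5 genes ran from 0.0437 to 0.0824. ETFA, a subunit of an electron carrier of the mitochondrial matrix, was at 51.8, 37.8 and 52.1 CPM in SUPV3L1 knockdown and 57.9, 41.7 and 104 CPM in PNPT1 knockdown. Like CD74 it was highest in PNPT1 knockdown replicate 3, lowest in SUPV3L1 knockdown replicate 2, and was not called (log2 fold change -0.52 ± 0.38, SE; edgeR, adjusted p = 0.898). Among the members, CIITA ranked 6459 by this distance and HLA-DMA 9519, both far from the nearest genes. Their mean counts, 13.3 and 9, lay below the 50 asked of other genes, and counting error adds to such distances. Whether CIITA and HLA-DMA follow CD74 is thus not resolved. The libraries share their scaling, so a gene can resemble CD74 through the TMM factor of PNPT1 knockdown replicate 3.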

How the data were processed

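Counts and FPKM values were used as deposited. The authors' read counts are whole numbers per Ensembl gene for each library, and the 5 summary lines after them entered neither library sizes nor tests. The deposited FPKM table holds the authors' values per gene and the symbols by which members were found; it shows the MARCHF genes as dates, so these were taken by identifier. The submitters' processing notes name HISAT2 2.2.1, StringTie 2.1.4, SAMtools 1.14 and HTSeq, with GRCh38. The sources used here do not give the strand setting or the annotation release. Assigned counts were 5852090 to 11361371 per library, and 65.7% to 80.1% of entries were alignments that were not unique, which give no counts. Counts were tested with edgeR 4.0.16 (R 4.3.3; quasi-likelihood, TMM, default filter with a minimum count of 10 and a total of 15, 13275 genes, Benjamini-Hochberg threshold 0.05), after a check on simulated data. Each standard error is the fold change divided by the square root of its F statistic. Alternatives were DESeq2 1.42.0, limma 3.58.1 on log2 FPKM with pseudocounts of 0.1 and 1, other scalings and filters, and leaving out each library. Sums and shares were compared by two-sided exact permutation tests of the difference of means. Intervals are exact Clopper-Pearson at 95%, and they and the floor of 3 counts cover counting error only. All 10 members are named, with up to 4 genes of each pathway list (most counted) and the 5 genes nearest to CD74; genes named outside this rule are marked in the text or are markers of cell types. CD80, CD40, LGMN, IFI30 and MARCHF1 are named for their low counts. Members and lists were chosen with earlier results of these data known. Positions are from GENCODE 29 (57055 of 60675 identifiers matched) and promoters from RefSeq. Some genes of these lists are not reported here.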

Additional observations from a re-analysis of the deposited data

How the results depend on the processing

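No paired analysis was possible because the labels give the groups no shared replicate numbers. Of the 7 members outside the fit, 6 had 0 to 31 counts each, while HLA-DMB had 66 counts, mostly in 1 library. Why these counts were low was not tested. No member was called under any of the 15 alternatives, those that left out each library included (0 in every case). Most of these alternatives called no gene at all, so they could not set the members apart from other genes. The strict filter of 50 counts held 1 member, CD74, and DESeq2 gave HLA-DMA no adjusted p. The median log2 fold change of the members, -0.49 over 3 members, was 0.43 on log2 of FPKM plus 0.1 and 0.168 on log2 of FPKM plus 1 (5 members each), 0.148 for counts with no filter and 0.149 for FPKM plus 0.1 with no filter (8 members each), and lay between -0.86 and -0.10 when each library was left out. All 4 settings that turned it held more members than the 3 tested, and the median of all genes was 0.174 on log2 of FPKM plus 0.1 and 0.112 for counts with no filter, against 0.0094. The log2 fold change of CD74 stayed below 0 in all of them, from -0.82 without PNPT1 knockdown replicate 2 to -0.11 without PNPT1 knockdown replicate 3. That of HLA-DMA ranged from -0.0502 without SUPV3L1 knockdown replicate 3 to 1.29, and that of CIITA from -0.894 to 0.473 without PNPT1 knockdown replicate 1. The summed level of the 10 members, -30.4 CPM as a difference, was 3.17 CPM with totals that leave out mitochondrial genes (118 in SUPV3L1 knockdown and 115 in PNPT1 knockdown) and 0.901 CPM without CD74, and lay between -50.9 and -3.26 CPM when each library was left out; the cause was not tested. edgeR called 187 of 28015 genes without the filter and 1 of 13713 without SUPV3L1 knockdown replicate 2, and DESeq2 called 18 of 13275. The main fit and every other alternative called 0. An alternative TMM scaling without mitochondrial and clone-named genes, chosen after seeing the data, gave -0.56 for CD74.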
